A study of Mus musculus with 6 samples.

Results

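The glycolytic enzymes considered here are *Hk1*, *Hk2*, *Hk3*, *Gpi1*, *Pfkl*, *Aldoa*, *Tpi1*, *Pgk1*, *Eno1* and *Ldha*, a list of 10 genes taken by name. All probes carrying 1 of these names in the deposited value table were taken, which gave 11 probes for 7 of the 10 genes, among 22119 probes tested, of which 16494 carried 1 gene name, for 10528 genes. No probe used here carried the name *Hk2*, *Gpi1* or *Eno1*, so these enzymes were not analysed. Each value is the signal of 1 probe of a BeadChip microarray in 1 pool of sorted bone marrow cells, on a log2 scale after background correction and quantile normalization. The cells were LSK cells (Lin- Sca-1+ c-Kit+), the bone marrow fraction that holds hematopoietic stem cells and multipotent progenitors. The PU.1-deficient pools were *Spi1*fl/fl *MxCre*+ and the wild-type (WT) pools were *Spi1*+/+ *MxCre*+, with 3 pools per genotype, all C57BL/6 in background. Each pool combined the cells of 15 to 20 mice aged 6 to 12 weeks. Mice of both genotypes carried the *MxCre* transgene and received polyIC, 5 µg per g of body weight, in 2 injections 3 days apart, and the cells were isolated on day 14. *MxCre* answers to interferon, so the deletion it makes is not restricted to LSK cells.

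Glycolysis splits glucose into pyruvate in the cytosol, giving ATP without oxygen, and lactate dehydrogenase then returns pyruvate to lactate. Hexokinases trap glucose as glucose-6-phosphate, phosphofructokinase makes the committed and most tightly regulated step, and aldolase, triose phosphate isomerase, phosphoglycerate kinase and enolase carry the carbon to pyruvate. Hematopoietic stem cells are known for their reliance on glycolysis, and neutrophils, which hold few mitochondria, also draw much of their ATP from it. PU.1, the product of *Spi1*, is an ETS-family transcription factor of the myeloid and lymphoid lineages.

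*Spi1* itself had log2 intensities of 6.62, 5.80 and 6.00 in the PU.1-deficient pools, against 8.54, 8.51 and 8.69 in the WT pools, which is 18.4% of the WT level (log2 fold change -2.44, standard error 0.24, *limma* adjusted p = 0.00112). Mean raw intensity per array was 262.8 to 451.2, the lowest in PU.1-deficient pool 2, which also had the fewest detected probes (15639, against up to 18174 on the other arrays). The neutrophil markers were far higher in the PU.1-deficient pools: 8 of 10 passed the test upward (*Elane*, *Prtn3*, *Ngp*, *Camp*, *Lcn2*, *S100a8*, *S100a9* and *Cebpe*), and the summed linear level of the list was 138000 to 151000 in PU.1-deficient pools and 30400 to 50400 in WT pools. The LSK markers summed to 4520 to 5420 in PU.1-deficient pools and 7160 to 8360 in WT pools, where *Cd34* and *Slamf1* of 5 passed downward, *Slamf1* was not detected in any PU.1-deficient pool, and *Kit* was detected in all pools with no call. All 5 megakaryocyte markers tested (*Pf4*, *Itga2b*, *Gp9*, *Gp1bb* and *Vwf*), 5 of 6 erythroid markers (*Klf1*, *Hba-a1*, *Epor*, *Car1* and *Ermap*) and 3 of 5 monocyte and macrophage markers (*Csf1r*, *Ly86* and *Adgre1*) passed downward. Of 4 B cell markers *Vpreb1* and *Igll1* passed upward and *Cd79b* downward. *Adgre1* was detected in 0 PU.1-deficient and 3 WT pools, and *Igll1* in 3 PU.1-deficient and 0 WT pools. Like *Slamf1*, both entered the test only through the genotype where they were higher. Of 5 basophil and mast cell markers *Cpa3* and *Mcpt8* passed upward and *Gata2* downward. In such pooled cells, fewer cells of a type and less RNA per cell cannot be told apart, and the part that these cell type differences play in the enzyme values below was not tested.

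Among the glycolytic enzymes only *Pfkl*, the liver-type phosphofructokinase, passed the test in PU.1-deficient LSK cells, where the brighter of its probes was lower. Of the 11 probes, 0 passed the test upward, 1 passed downward and 10 did not pass. That share of 9.09% stands beside 8.79% of all 22119 probes tested, of which 4.89% passed upward and 3.91% downward (1081 and 864 probes, against 526 and 893 when arrays were scaled to equal medians), so the enzymes were called about as often as any probe. The median log2 fold change was 0.02 over the 11 probes and -0.04 over all probes, and the median size of the change regardless of sign was 0.26 for both. The pools of the genotypes did not overlap for 2 of the 11 probes (*Pfkl* and *Ldha*), against 28.0% of all probes. At an unadjusted p under 0.05 the same number of member probes, 2 of 11, passed, against 4690 of 22119. A change of more than 2-fold either way lay outside the 95% confidence interval for 8 of the 11 probes, beside 14310 of all 22119.

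**Figure D1:**
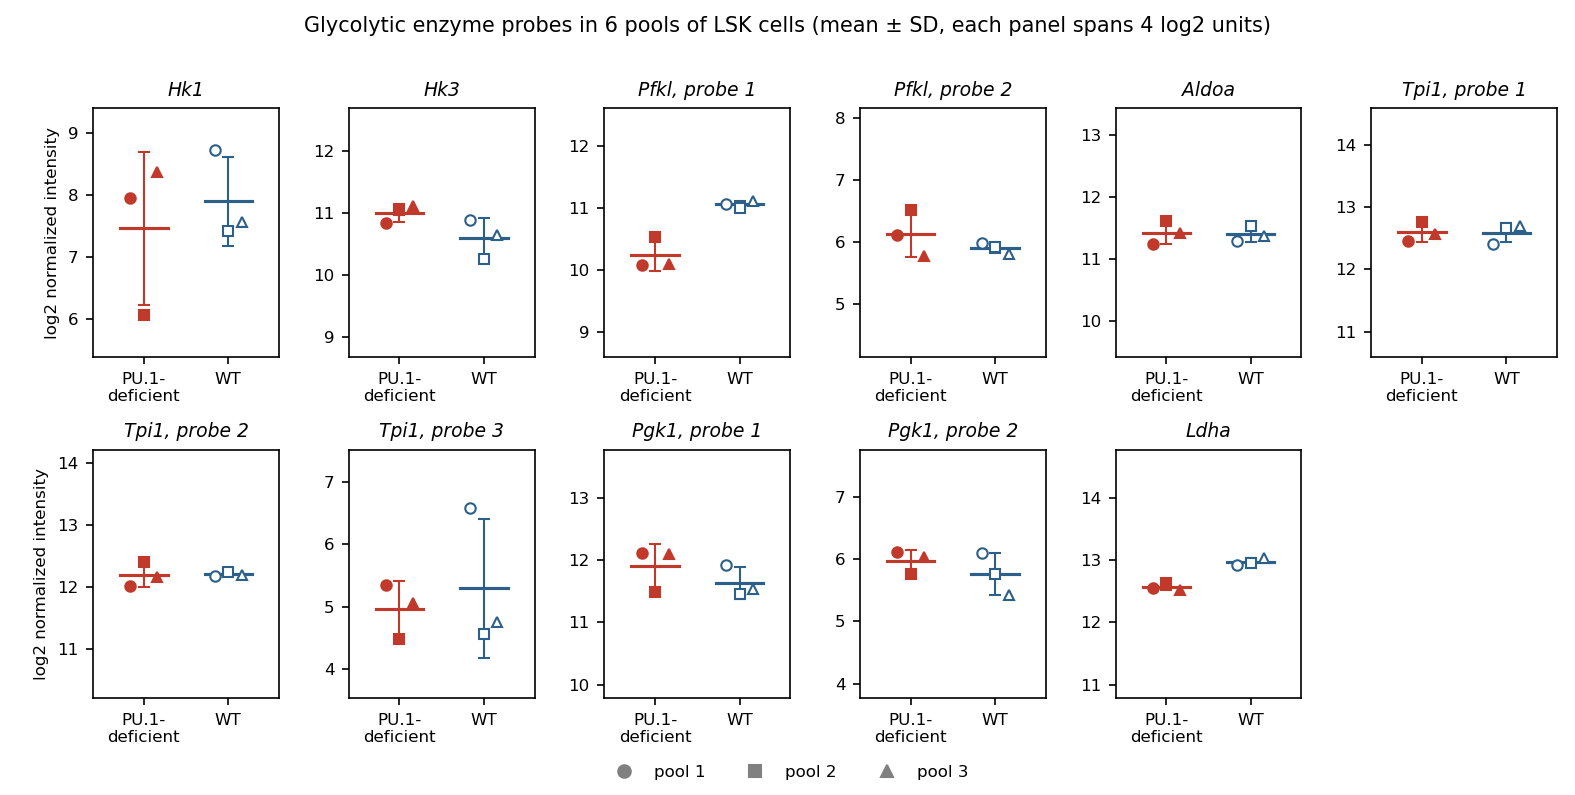
Log2 normalized intensity (y axis) of each of the 11 glycolytic enzyme probes in the PU.1-deficient pools (filled, left) and the WT pools (open, right), with the mean and SD of 3 pools and the symbol giving the pool number; probes of a gene are numbered from the brightest. The genotypes are apart for *Pfkl* probe 1 and for *Ldha*, and the pools of *Hk1* and of *Tpi1* probe 3 are spread widely within a genotype.

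The 2 hexokinases measured had changes of opposite sign, and neither passed the test. *Hk3*, the hexokinase most associated with myeloid cells (probe ILMN_3161013), had log2 intensities of 10.83, 11.04 and 11.11 in PU.1-deficient pools, against 10.89, 10.25 and 10.65 in WT pools. The highest WT pool lay above the lowest PU.1-deficient pool, so the genotypes overlapped. The log2 fold change was 0.40 (standard error 0.21, *limma* adjusted p = 0.353), and the 95% confidence interval ran from -0.10 to 0.89. *Hk1*, the widely expressed hexokinase that binds to mitochondria (probe ILMN_2644025), had log2 intensities of 7.95, 6.06 and 8.37 in PU.1-deficient pools, against 8.72, 7.41 and 7.56 in WT pools. The PU.1-deficient pools held the lowest value and also 2 values above 2 of the WT pools. The change of -0.44 on the log2 scale (standard error 0.62, *limma* adjusted p = 0.771) came with an interval from -1.88 to 1.01, wide enough to hold a change past 2-fold in either direction, and without PU.1-deficient pool 2 it was 0.26 (adjusted p = 0.758). *Hk3* minus *Hk1* within a pool was 2.88, 4.98 and 2.74 in PU.1-deficient pools, against 2.17, 2.84 and 3.09 in WT pools. The difference of these means, 0.83, was within the spread of the pools (exact two-sided permutation test, p = 0.5, smallest possible p = 0.1).

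*Pfkl* was the only member with a call. Its brighter probe (ILMN_1236539) had log2 intensities of 10.09, 10.53 and 10.10 in PU.1-deficient pools, against 11.06, 11 and 11.12 in WT pools. Every PU.1-deficient pool lay below every WT pool, with a gap of 0.47 between the nearest pools. The PU.1-deficient level was 56.7% of WT (log2 fold change -0.82, standard error 0.19, 95% confidence interval -1.25 to -0.38, *limma* adjusted p = 0.0369). The call was close to the threshold: the direction held without each pool, but the adjusted p was 0.137 without PU.1-deficient pool 1, 0.136 without PU.1-deficient pool 3, 0.0648 without WT pool 1, 0.125 without WT pool 2 and 0.152 without WT pool 3, against 0.0187 without PU.1-deficient pool 2. The dim second probe (ILMN_2871325), detected in all 6 pools, had 6.11, 6.52 and 5.78 in PU.1-deficient pools, against 5.98, 5.92 and 5.81 in WT pools. It showed no fall (log2 fold change 0.23, standard error 0.22, adjusted p = 0.632), so the probes of this gene disagreed, and their mean gave -0.29 (adjusted p = 0.446). *Pfkl* lies on chromosome 10 from 77986947 to 78009807 in GRCm38.p6, and the place of each probe in the transcript was not used here.

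Of the other phosphofructokinase genes, which were no members, *Pfkm*, the muscle type, had 9.63, 10.01 and 9.62 in PU.1-deficient pools, against 10.36, 10.54 and 10.38 in WT pools. These pools were also apart, at a log2 fold change of -0.67 that did not pass (*limma* adjusted p = 0.0709), and its next probe gave -0.89 (adjusted p = 0.0682). The direction of the brightest *Pfkm* probe held in all 18 alternative settings and it passed in 8 of them, with an adjusted p of 0.0354 with the pool number as a block. *Pfkp*, the platelet type, had 8.46, 5.43 and 8.03 in PU.1-deficient pools, against 8.31, 5.66 and 5.51 in WT pools, a wide spread within each genotype that left its log2 fold change of 0.81 without a call (adjusted p = 0.717). The second *Pfkp* probe, detected in 3 pools of each genotype, gave -0.08 (*limma* adjusted p = 0.913). *Pfkm* and *Pfkp* were named here after their values were seen.

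The enzymes that cleave the hexose and interconvert the triose phosphates had log2 fold changes near 0 on their bright probes. *Aldoa*, the main aldolase outside the liver (probe ILMN_2599130), had 11.24, 11.61 and 11.42 in PU.1-deficient pools, against 11.29, 11.53 and 11.37 in WT pools. Its log2 fold change of 0.03 had a standard error of 0.18 (*limma* adjusted p = 0.958). *Tpi1*, triose phosphate isomerase, had 12.46, 12.77 and 12.57 in PU.1-deficient pools, against 12.41, 12.66 and 12.69 in WT pools, on its brightest probe (ILMN_1230137). The second *Tpi1* probe (ILMN_2932359) had 12.02, 12.41 and 12.17 in PU.1-deficient pools, against 12.18, 12.25 and 12.20 in WT pools. The brightest probe gave a log2 fold change of 0.02 (95% confidence interval -0.40 to 0.43) and the second one of -0.01 (-0.41 to 0.40), with adjusted p-values of 0.978 and 0.993 from *limma*. The third *Tpi1* probe (ILMN_1231447) was at the limit of detection, seen in 2 PU.1-deficient pools and 1 WT pool, with 5.35, 4.47 and 5.06 in PU.1-deficient pools, against 6.58, 4.55 and 4.75 in WT pools. Its log2 fold change of -0.33 (adjusted p = 0.801) turned to 0.31 without WT pool 1.

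*Pgk1*, the phosphoglycerate kinase that makes the first ATP of the pathway, lies on the X chromosome. Its brighter probe (ILMN_2651886) had 12.11, 11.49 and 12.10 in PU.1-deficient pools, against 11.93, 11.45 and 11.53 in WT pools. PU.1-deficient pool 2 fell among the WT pools and the other 2 lay above them, at a log2 fold change of 0.26 (standard error 0.24, *limma* adjusted p = 0.618). The dim probe (ILMN_1226872) had 6.11, 5.76 and 6.04 in PU.1-deficient pools, against 6.10, 5.76 and 5.42 in WT pools, with a log2 fold change of 0.21 (adjusted p = 0.673). *Xist*, which is transcribed from the silenced X of females, stood apart between the genotypes on every probe. Its brightest probe had 9.93, 10.01 and 11.06 in PU.1-deficient pools, against 4.48, 4.48 and 5.18 in WT pools. The log2 fold change was 5.62 on that probe. It was 5.32, 5.15 and 4.01 on the others, which were not detected in any WT pool. A difference in the sex of the pooled mice would run along genotype. It cannot be told apart from genotype here, for *Pgk1* or for any other gene of this report, and its part was not tested.

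*Ldha*, the lactate dehydrogenase subunit that favours lactate production (probe ILMN_1257965), had 12.56, 12.63 and 12.52 in PU.1-deficient pools, against 12.93, 12.95 and 13.04 in WT pools. All 3 PU.1-deficient pools lay below all 3 WT pools, with 0.30 between the nearest and an SD of 0.06 within either genotype. The PU.1-deficient level was 75.6% of WT. The log2 fold change of -0.40 (standard error 0.16, 95% confidence interval -0.77 to -0.04) had an unadjusted p of 0.0338 and did not pass after adjustment over all probes (*limma* adjusted p = 0.187). Its direction held in all 18 alternative settings and it passed in 4 of them. At 0.06, its SD within the genotypes was smaller than that of all but 0.647% of the probes tested, and *limma* draws so small a spread towards that of the other probes.

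**Figure D2:**
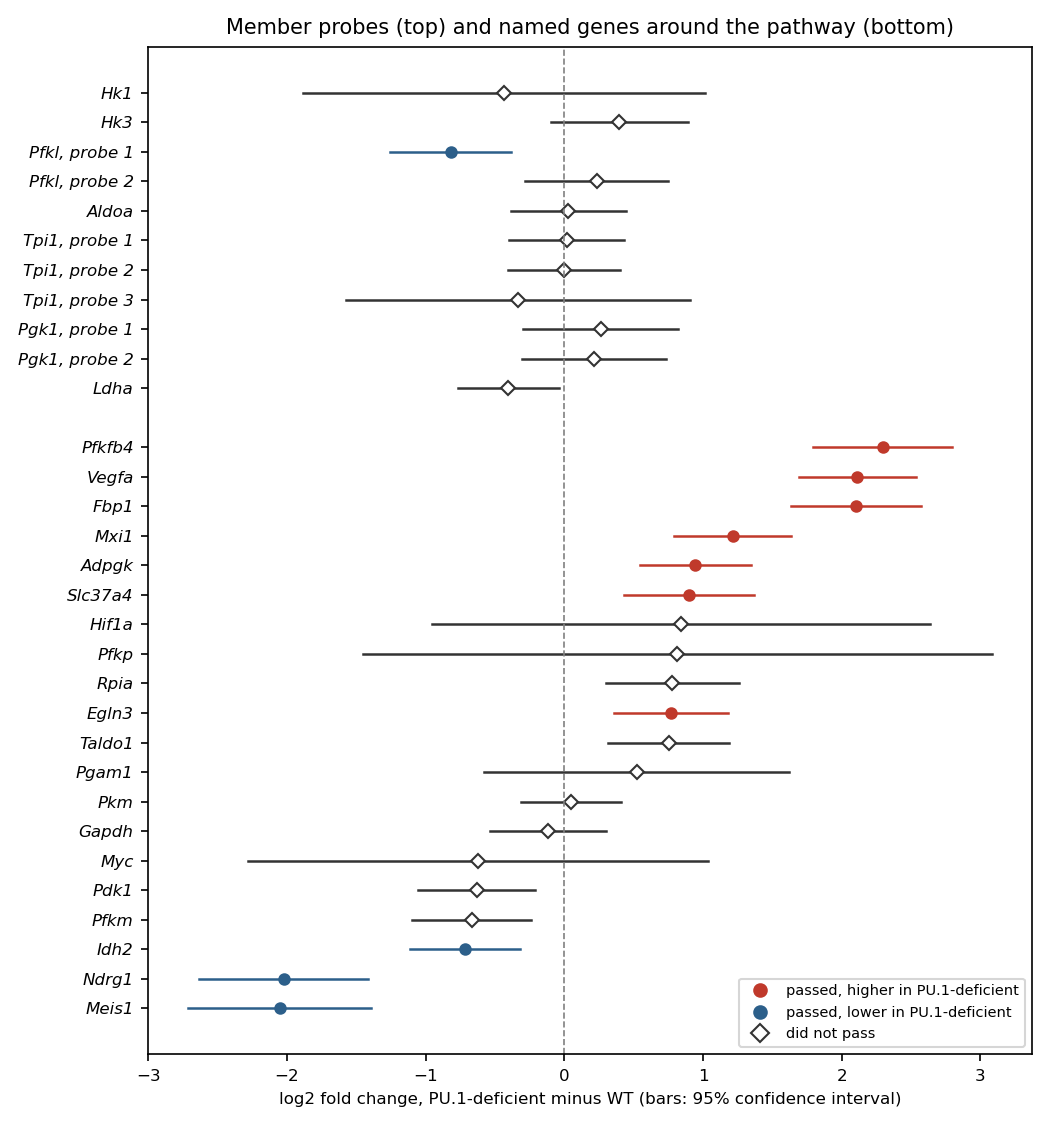
Log2 fold change (PU.1-deficient minus WT, x axis) with its 95% confidence interval for the 11 member probes (top) and for named genes around the pathway by their brightest probe (bottom); colour marks genes that passed the test. The interval of *Pfkl* probe 1 runs from -1.25 to -0.38 and that of *Ldha* ends at -0.04, the other member intervals cross 0, and *Pfkfb4* at 2.29 and *Fbp1* at 2.10 stand furthest to the right with *Vegfa*.

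The spread among the pools of a genotype differed widely from enzyme to enzyme. The within-genotype SD was 1.01 for *Hk1*, larger than that of 97.9% of all probes tested, and 0.85 for the third *Tpi1* probe, against a median of 0.28 over all probes. For *Aldoa*, the 2 bright *Tpi1* probes and *Ldha* it was 0.06 to 0.16. PU.1-deficient pool 2 was the lowest of its genotype for *Hk1*, the third *Tpi1* probe and both *Pgk1* probes, and the highest of its genotype for 6 others. WT pool 1 was the highest WT pool for the same 4 probes. The *Hk1* deviations from the genotype mean were 0.49, -1.40 and 0.91 in PU.1-deficient pools, against 0.83, -0.49 and -0.34 in WT pools. *Pfkp* above split the pools in the same way, as did *Myc* and *Pgam1* below. PU.1-deficient pool 2 had the lowest mean intensity of the 6 arrays (262.8), and WT pools 2 and 3, the other pools with low *Hk1*, had 451.2 and 299.0. The part of array brightness in this pattern was not tested.

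**Figure D3:**
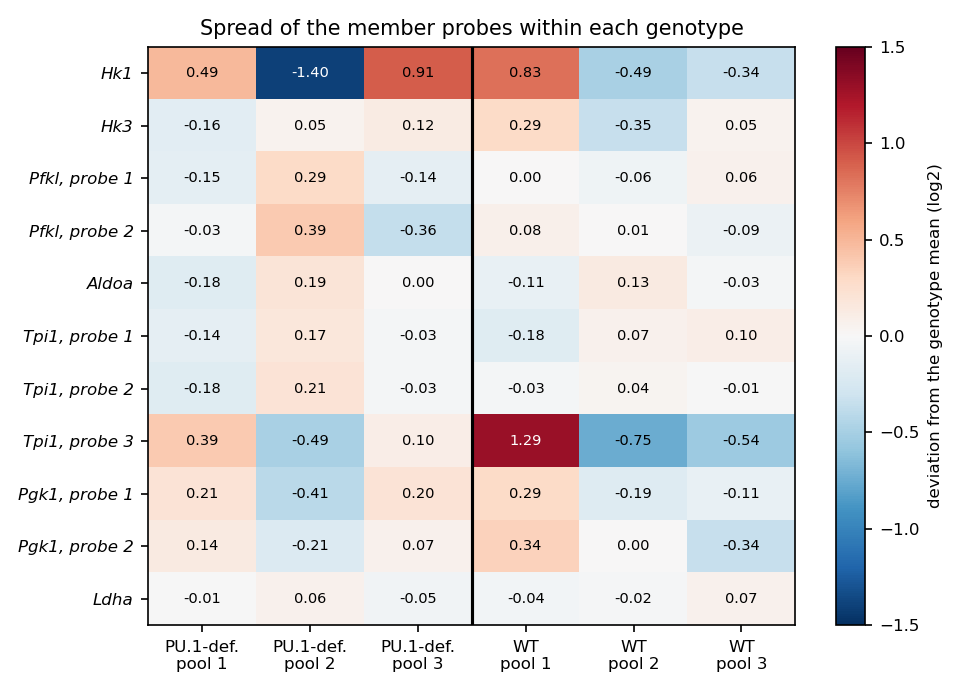
Deviation of each pool from its genotype mean (log2, colour and printed value) for the 11 member probes, with PU.1-deficient pools left of the line and WT pools right of it. *Hk1*, *Tpi1* probe 3 and both *Pgk1* probes are low in PU.1-deficient pool 2 and high in WT pool 1, and *Ldha* deviates by at most 0.07 in any pool.

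Promoter sequence was read for the members, since several glycolytic genes are known targets of hypoxia-inducible factors and the deleted factor binds ETS motifs. The RefSeq windows (GRCm38.p6) run from 250 bases before to 50 after each start site, and 16 windows matched the 10 members. The hypoxia response core was searched as ACGTG and as GCGTG, and a PU.1-type ETS motif as AGGAAGT, on both strands. ACGTG was found in 7 of the 16 windows, from 6 of 10 genes (*Hk1*, *Hk2*, *Hk3*, *Aldoa*, *Pgk1* and *Ldha*), and in 19.6% of all 32851 windows. GCGTG was found in 7 of the 16 windows, from 4 genes (*Hk1*, *Pfkl*, *Eno1* and *Ldha*) and in 32.4% of all windows. AGGAAGT was found in 2 of the 16 windows, those of *Hk3* and *Pgk1*, and in 9.35% of all windows. Windows of a gene can overlap and count the same site again, as for ACGTG in *Aldoa* and GCGTG in *Eno1*. The counts by gene have no share over all genes beside them. Stretches of 30 bases are shown for the members that differed most or hold the ETS motif, and for *Pfkfb4* and *Fbp1*. They are read 5′ to 3′ on the strand of the gene, with the match in capitals. The ACGTG shown for *Ldha* overlaps a match on the other strand that starts 145 bases before the start site. *Ldha* holds further ACGTG matches that are not shown. A match is a description of the sequence and not a binding site.
*Pfkl*, GCGTG starting 99 bases before the start site, chr10:78009889-78009918, minus strand: atttgtagactgGCGTGcgctccgcctttc
*Ldha*, ACGTG starting 144 bases before it, chr7:46845648-46845677, plus strand: gtgtcgcagcacACGTGgagccactcttgc
*Pgk1*, ACGTG starting 150 bases before it, chrX:106186938-106186967, plus strand: gcgtcgtgcaggACGTGacaaatggaagta
*Pgk1*, AGGAAGT starting 189 bases before it, chrX:106186900-106186929, plus strand: ctcccctagtcAGGAAGTtcccccccgccc
*Hk3*, AGGAAGT on the other strand, starting 7 bases before it, chr13:55021374-55021403, minus strand: ttgggccttcaACTTCCTgtggtcatctgg
*Pfkfb4*, GCGTG starting 117 bases before it, chr9:108991773-108991802, plus strand: ttgacggatgggGCGTGcttagtccaaaag
*Fbp1*, AGGAAGT starting 64 bases before it, chr13:62888328-62888357, minus strand: ggcaacagaggAGGAAGTagcgttgtcagc

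Other genes of sugar metabolism, its regulators and genes tied to hypoxia and Myc were taken from lists of 99 genes. Of these, 72 were tested by their brightest probe, and 9 rose, 3 fell and 60 did not pass. That is 16.7%, beside 12.2% of all 10528 genes by their brightest probe, of which 6.61% passed upward and 5.59% downward. The lists were chosen with earlier results of these data known, so the higher share is not independent of them. The genes that rose include *Ldhc* and *Mlxipl*, which entered the test only through the PU.1-deficient pools where they were detected. The median log2 fold change was 0.06 over these 72 genes and -0.04 over all genes.

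Of 24 other genes of glycolysis and pyruvate, 3 rose and 0 fell, with a median log2 fold change of -0.10, and 1 to 7 passed downward in 9 of the 18 alternative settings. *Pfkfb4*, a bifunctional enzyme that makes and breaks the fructose bisphosphate that activates phosphofructokinase, had 10.33, 10.09 and 9.64 in PU.1-deficient pools, against 7.63, 7.73 and 7.81 in WT pools. The genotypes were far apart, and the log2 fold change was 2.29 (standard error 0.22, *limma* adjusted p = 0.000922). *Adpgk*, an ADP-dependent glucokinase, had 9.88, 9.77 and 9.84 in PU.1-deficient pools, against 8.68, 8.96 and 9.02 in WT pools (log2 fold change 0.94, adjusted p = 0.0147). Its call was lost without 4 of the 6 pools taken singly (PU.1-deficient pools 1 and 3 and WT pools 2 and 3, adjusted p from 0.0532 to 0.0650), and its other 2 probes, near background, gave 0.19 and 0.17. *Ldhc*, the lactate dehydrogenase of the testis, was detected in 3 PU.1-deficient pools and 0 WT pools. The log2 fold change was 1.43 (95% confidence interval 0.91 to 1.96, *limma* adjusted p = 0.00775), and 0.49 with no background correction. A second *Ldhc* probe gave 0.91. With lower WT values raised to the lowest signal detected on each WT array, the means of the brighter probe differed by 2.22-fold. That figure leaves out the spread of the pools. *Ldhc* entered the test only through the PU.1-deficient pools where it was detected, and with no filter on dim probes the adjusted p was 0.0176. Its raw intensities were near background, at 163, 101.7 and 186.6 in PU.1-deficient pools, against 117.5, 121 and 85.7 in WT pools. *Gapdh* (log2 fold change -0.12, adjusted p = 0.782), *Pkm* (0.05, adjusted p = 0.915) and *Pgam1* (0.52, adjusted p = 0.612), which fill the steps of the pathway between and after the members, did not pass. *Pgam1* had 10.25, 9.05 and 9.77 in PU.1-deficient pools, against 10.16, 8.62 and 8.72 in WT pools, with PU.1-deficient pool 2 low and WT pool 1 high as for *Hk1*.

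In the gluconeogenesis list 2 of 4 genes tested rose, with a list median of 0.66. *Fbp1*, the fructose bisphosphatase that runs the phosphofructokinase step backwards, had 9.58, 9.51 and 9.22 in PU.1-deficient pools, against 7.06, 7.51 and 7.44 in WT pools. No pool of one genotype came near the other, and the log2 fold change was 2.10 (standard error 0.20, *limma* adjusted p = 0.000992). *Slc37a4*, the carrier that brings glucose-6-phosphate into the endoplasmic reticulum, had 7.18, 7.70 and 7.29 in PU.1-deficient pools, against 6.34, 6.55 and 6.58 in WT pools (log2 fold change 0.90, adjusted p = 0.0332). The *Slc37a4* call did not survive the loss of any pool, with an adjusted p of 0.0541 to 0.113. Around the step that *Pfkl* catalyses, the directions were mixed. The brighter *Pfkl* probe was lower while *Pfkfb4* and *Fbp1* were higher, and the direction of each held in all 18 alternative settings. That *Pfkl* probe passed in 12 of these, and *Pfkfb4* and *Fbp1* in all 18. The second *Pfkl* probe (0.23) and the brighter *Pfkp* probe (0.81) were higher without a call, and the second *Pfkp* probe gave -0.08. *Pfkm* (-0.67), *Pfkfb2* (-0.75, *limma* adjusted p = 0.132) and *Pfkfb3* (-0.21, adjusted p = 0.591) were lower without a call. *Pfkfb2* and *Pfkfb3* were named after their values were seen.

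None of 6 pentose phosphate genes passed, although their median log2 fold change was 0.55 and the pools of 4 did not overlap, beside 34.5% of all genes. *Taldo1*, transaldolase (log2 fold change 0.75, *limma* adjusted p = 0.0514), and *Rpia*, ribose phosphate isomerase (0.78, adjusted p = 0.0622), came nearest to the threshold and were named after their values were seen. This count of 0 depended on the processing: 1 or 2 genes of the list passed upward in 12 of 18 alternative settings, the deposited log2 values among them (1 gene), and *Rpia* passed in 9 (adjusted p = 0.021 with the pool number as a block). *G6pdx*, the first enzyme of that branch, had no probe of that name among those used. Of 17 TCA cycle genes 0 rose and 1 fell, with a median of -0.19. *Idh2*, the mitochondrial isocitrate dehydrogenase that uses NADP, had 10.90, 11.18 and 11.17 in PU.1-deficient pools, against 11.86, 11.85 and 11.69 in WT pools (log2 fold change -0.72, adjusted p = 0.043). Its call was lost without any single pool, at an adjusted p of 0.0547 to 0.174.

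Among 21 genes tied to hypoxia and to Myc, which include regulators and genes induced by hypoxia, 4 rose and 2 fell. *Vegfa*, the vascular growth factor induced by hypoxia, had 9.39, 9.16 and 9.09 in PU.1-deficient pools, against 6.91, 7.21 and 7.19 in WT pools, a log2 fold change of 2.11 (*limma* adjusted p = 0.000628). *Ndrg1*, another gene induced by hypoxia, moved the other way, with 7.92, 8.48 and 8.83 in PU.1-deficient pools, against 10.19, 10.49 and 10.62 in WT pools (log2 fold change -2.02, adjusted p = 0.00358). By their brightest probes *Ankrd37* (-0.35), *Car9* (0.001) and *Ddit4* (0.53) of the same list did not pass, and they were named after their values were seen. A part of hypoxia in these values was not tested. *Meis1*, a homeobox factor of stem cells, had 9.46, 10.27 and 10.29 in PU.1-deficient pools, against 11.71, 12.30 and 12.17 in WT pools (log2 fold change -2.05, adjusted p = 0.00456). *Mxi1*, a Myc antagonist, had a log2 fold change of 1.21 (adjusted p = 0.00642). *Egln3*, a prolyl hydroxylase that marks hypoxia-inducible factors for destruction, had one of 0.77 (adjusted p = 0.0369), which did not pass without PU.1-deficient pools 1, 2 or 3 or WT pools 2 or 3, at an adjusted p of 0.0704 to 0.163, and its other probes gave 0.28 and -0.54. *Mlxipl*, a transcription factor that responds to glucose, was detected in 3 PU.1-deficient pools and 0 WT pools. With WT values raised as for *Ldhc*, its means differed by 1.85-fold, without regard to the spread of the pools. *Mlxipl* had a log2 fold change of 1.13 (95% confidence interval 0.48 to 1.785, *limma* adjusted p = 0.0485). It entered the test only through the PU.1-deficient pools where it was detected, and the call was lost with no filter on dim probes (adjusted p = 0.102), with no background correction (0.0975), with an offset of 50 (0.0795) and without any pool but PU.1-deficient pool 3 (0.0777 to 0.182). *Hif1a* had 7.59, 4.54 and 5.48 in PU.1-deficient pools, against 6.02, 4.71 and 4.36 in WT pools (log2 fold change 0.84, adjusted p = 0.618), and *Myc* had 7.24, 5.14 and 7.62 in PU.1-deficient pools, against 8.39, 6.72 and 6.76 in WT pools (-0.62, adjusted p = 0.700). The SD within a genotype was 0.87 to 1.56 for *Hif1a* and 0.95 to 1.34 for *Myc*, and the genotypes overlapped for both.

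**Figure D4:**
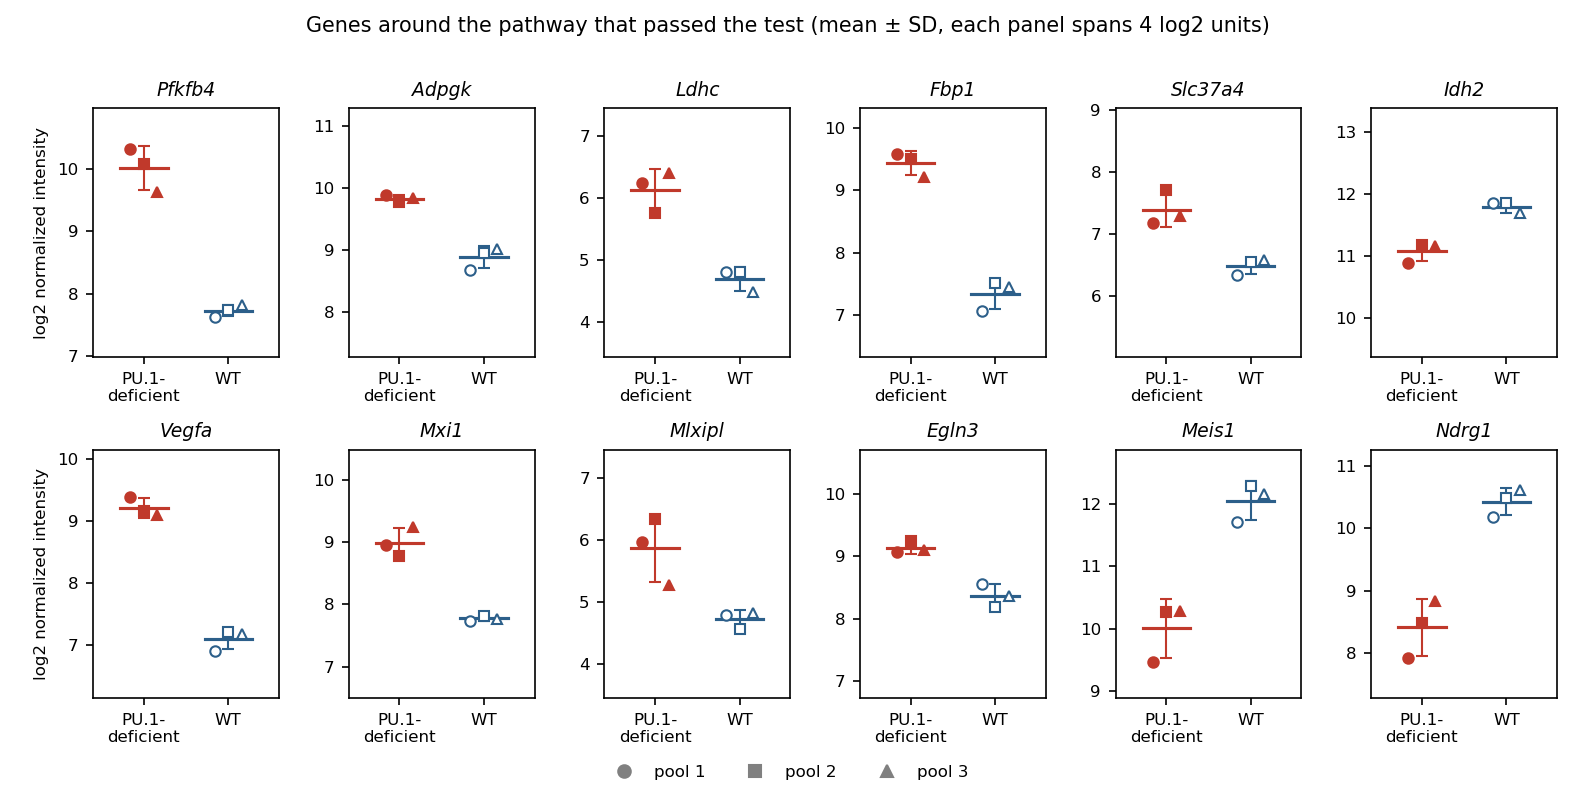
Log2 normalized intensity (y axis) by the brightest probe of the 12 genes around the pathway that passed the test, in PU.1-deficient pools (filled, left) and WT pools (open, right), with the mean and SD of 3 pools. *Pfkfb4*, *Fbp1* and *Vegfa* are about 2 log2 units higher and *Meis1* and *Ndrg1* about 2 log2 units lower in PU.1-deficient pools; WT pools had no detected signal for *Ldhc* and *Mlxipl*.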

How the data were processed

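LSK cell RNA was amplified and hybridized to Illumina MouseWG-6 BeadChips. The authors deposited raw intensities with a detection p-value for each probe, and log2 values made with neqc of *limma*. In the raw table the headings of intensities and detection p-values are exchanged, which was settled against the log2 table. The intensities were normalized again with neqc (R 4.3.3, *limma* 3.58.1, offset 16, background from detection p-values) and differed from the deposited log2 values by at most 0.026. The test, lmFit and eBayes over every probe detected (p-value under 0.05) on 1 array or more, called changes at a Benjamini-Hochberg adjusted p of 0.05, PU.1-deficient minus WT, with no block. The procedure was tested on simulated data with noise drawn independently for each probe and array. The real pools deviated together over many probes, which the simulation leaves out. A gene is given by the probe of highest mean, unless all are given. Named were all members and *Spi1*, the genes of each other list that passed (5 largest per direction), *Gapdh*, *Pgam1*, *Pkm*, *G6pdx*, *Hif1a* and *Myc*, and the markers that passed. Marker levels are summed 2-to-the-power log2 values. Members and lists were chosen with earlier results of these data known. Levels of different probes are not comparable, and the number of arrays limits the precision. Alternatives were other background, offset, scaling, filters, weights, variance prior, a pool-number block, 1 value per gene, the deposited values and each pool left out.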

Additional observations from a re-analysis of the deposited data

How the results depend on the processing

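The count of 1945 changed probes became 3277 with the pool number as a replicate block, 7309 with array weights and 5818 without PU.1-deficient pool 2 and WT pool 1 together, a setting chosen after seeing the data, and was 904 to 2091 with each pool left out. With arrays scaled to equal medians all probes together shifted to a median of -0.21 on the log2 scale. The count of changed member probes, 1, became 2 with no background correction, 2 with no filter, 4 with array weights, 0 with 1 value per gene, 2 with a robust variance trend and 2 without that pair of pools, and was 0 to 1 with each pool left out. The count of changed genes around the pathway, 12, became 5 with equal medians, 36 with array weights and 30 without that pair, and was 7 to 12 with each pool left out. *Pfkfb4*, *Fbp1*, *Vegfa*, *Meis1*, *Ndrg1* and *Spi1* passed in all 18 alternatives, while the calls of *Ldhc* (adjusted p = 0.070), *Mxi1* (0.171), *Adpgk* (0.235), *Slc37a4* (0.246), *Idh2* (0.111), *Egln3* (0.391) and *Mlxipl* (0.068) were lost under equal medians. The cause was not tested. Same-numbered pools deviated together with r = 0.72, 0.607 and -0.15 over 22119 probes, and PU.1-deficient pool 3 was closest to WT pool 1, so the numbers were not taken to pair the pools, and the replicate block changed no member call, with *Pfkl* at an adjusted p of 0.0225. Changes of sign were found only in uncalled log2 fold changes. With equal medians *Pfkl* probe 2 was -0.07, *Aldoa* -0.074, *Tpi1* probe 1 -0.05, *Pgk1* probe 2 -0.035 and *Pkm* -0.027. With array weights *Hk1* was 0.64, *Pfkl* probe 2 -0.016, *Aldoa* -0.017, *Tpi1* probe 1 -0.085, *Tpi1* probe 3 0.26 and *Myc* 0.60. With 1 value per gene *Tpi1* was -0.11. Without that pair of pools *Hk1* was 0.68, *Aldoa* -0.12, *Tpi1* probe 1 -0.16, *Tpi1* probe 3 0.56 and *Myc* 0.69, the last past the threshold (adjusted p = 0.0402). With each pool left out in turn, the values ran from -0.891 to 0.264 for *Hk1*, -0.064 to 0.121 for *Aldoa*, -0.072 to 0.088 for *Tpi1* probe 1, -0.108 to 0.083 for *Tpi1* probe 2, -0.706 to 0.312 for *Tpi1* probe 3, -0.02 to 1.504 for *Hif1a* and -1.099 to 0.142 for *Myc*. Differences of hexokinase probes that need *Hk2* could not be computed.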
